A study of Mus musculus with 2 samples.

Results

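The replication-dependent histone genes are the multigene families that supply histone proteins while DNA is copied. They were taken as every measured gene whose symbol starts with Hist1h, Hist2h or Hist3h, together with Hist4h4, that had at least 10 unique molecular identifiers (UMIs) over both libraries. Of 67 such symbols 61 met the rule, out of 32286 measured features. They comprise 5 linker histone genes of family H1 and 16 H2A, 16 H2B, 11 H3 and 13 H4 core histone genes. In the GRCm38 annotation 49 lie on chromosome 13, 9 on chromosome 3, 2 on chromosome 11 and 1 on chromosome 6. The members with the fewest UMIs were Hist1h2ah, Hist1h2ao and Hist1h4m at 10 each, and the symbols nearest below the limit were Hist1h3h at 7 and Hist1h1t at 4. The other 4 symbols left out had no UMI in either library.

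Most messenger RNAs end in a poly(A) tail, whereas replication-dependent histone mRNAs normally end in a conserved stem-loop that is bound by the stem-loop binding protein and cut with the help of the U7 small nuclear ribonucleoprotein. They accumulate in S phase and are degraded when DNA synthesis stops. Some of these genes are also known to make longer, polyadenylated mRNAs in cells that leave the cell cycle. The libraries here were primed on poly(A), so an mRNA that ends at the stem-loop is captured poorly, and the values below are UMIs of captured molecules, not the full pool of histone mRNA.

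The study compared cells of knee joint cartilage from Procr-CreER;tdTomato mice, in which tamoxifen turns on the red reporter in cells that use the Procr promoter, and in their descendants. For the trace library cells were collected 4 weeks after tamoxifen, and for the pulse library 2 days after it. Tamoxifen was given at 4 weeks of age in both, so the trace mice were also older. Each library pooled 3 mice, was sorted as tdTomato-positive and negative for CD45, Ter119, CD31 and DAPI, and was built with the V2 chemistry of 10x Genomics, which reads 3′ ends. With 1 library per group there is no replicate error, and no difference was tested. Intervals in brackets are exact 95% intervals for counting error only, Poisson for levels and ratios and Clopper-Pearson for shares. A gene is called higher or lower past a 2-fold ratio if both groups together hold at least 50 of its UMIs.

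Cells with at least 500 genes and at most 10% mitochondrial UMIs were kept, 9247 in trace (39286993 UMIs, median 3645 per cell) and 6533 in pulse (23081284 UMIs, median 2837). A cell was called cycling if it held at least 1 UMI of Top2a, a topoisomerase, or Mki67, the Ki-67 proliferation antigen. That gave 220 trace cells, 2.38% (2.08% to 2.71%), and 224 pulse cells, 3.43% (3.00% to 3.90%). Cycling cells were deeper than the others, with median UMIs of 5134 against 3621 in trace and 6494 against 2799 in pulse. The libraries shared 16 barcodes, none with identical counts. Ribosomal RNA-associated transcripts took 8.89% of trace and 0.961% of pulse UMIs. Xist had 14149 trace and 3 pulse UMIs, and the Y-linked Ddx3y had 13 trace and 4246 pulse UMIs. Chase time, age and the sex of the pooled mice cannot be told apart in any comparison of trace with pulse.

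The stem-loops of 7 members are printed because they carry nearly the same hairpin, in capitals, while the annotated transcripts run on past it to very different lengths. They are DNA letters of the GENCODE M21 transcripts with up to 5 bases on either side.
Hist1h1c: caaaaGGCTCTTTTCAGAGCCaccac
Hist1h1e: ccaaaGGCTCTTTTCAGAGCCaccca
Hist1h4i: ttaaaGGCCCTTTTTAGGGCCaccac
Hist1h4d: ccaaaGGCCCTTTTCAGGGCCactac
Hist1h2ap: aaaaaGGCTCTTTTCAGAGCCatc
Hist1h2ae: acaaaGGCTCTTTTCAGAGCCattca
Hist1h3c: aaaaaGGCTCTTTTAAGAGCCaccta
The printed stretches lie, on GRCm38, at chr13:23739507-23739532 on the plus strand for Hist1h1c, chr13:23621777-23621802 on the minus strand for Hist1h1e, chr13:22040961-22040986 on the minus strand for Hist1h4i and chr13:23581945-23581970 on the plus strand for Hist1h4d. Those of Hist1h2ap (chr13:21833026-21833049), Hist1h2ae (chr13:23570663-23570688) and Hist1h3c (chr13:23745042-23745067) are on the minus strand. The model of Hist1h2ap ends 3 bases after the hairpin and that of Hist1h3c 74 bases after it. Those of Hist1h2ae, Hist1h4i, Hist1h4d, Hist1h1c and Hist1h1e run on for 151, 330, 770, 840 and 1153 bases. The same 16-base hairpin as in Hist1h1c was found in 25 members, and the form in Hist1h4d was found in 7, all of them H4 genes. The histone stem-loop consensus occurred in 109 of 141767 mouse transcripts (0.0769%). Of these 109 transcripts 61 (56.0%) did not come from a gene with such a histone symbol.

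The first comparison asks how far these genes mark dividing cells. Summed over the 61 members, histone UMIs stood at 2986 counts per 1000000 UMIs (CPM) in cycling and 403 CPM in non-cycling trace cells, a ratio of 7.42 (7.17 to 7.67). In pulse they stood at 3671 CPM in cycling and 765 CPM in non-cycling cells, a ratio of 4.797 (4.66 to 4.94). Of 31 members with enough UMIs in trace, 29 were at least 2-fold higher in cycling cells, against 20.6% of all features, and none was 2-fold lower, against 17.6%. In pulse 27 of 28 were higher, against 11.7% of all features, and none was lower, against 11.9%. The members' median log2 ratio was 4.46 in trace and 2.58 in pulse, beside 0.16 and -0.01 over all features. A member that passes the UMI floor mainly through cycling cells had to differ, so these counts describe the measured members and not all 61. The ratios here and for single genes below pool all cell types, whose mix differed between cycling and non-cycling cells, as given further on. Cycling and cell type cannot be told apart in them.

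The families differed widely in how much of their signal lay outside cycling cells. H2A genes summed to 1006 CPM in cycling and 21.6 CPM in non-cycling trace cells, and to 1537 and 40.7 CPM in pulse, ratios of 46.7 (42.8 to 50.9) and 37.8 (35.0 to 40.8). H3 genes summed to 304 and 6.18 CPM in trace and to 141 and 6.62 CPM in pulse, ratios of 49.2 (41.9 to 57.9) and 21.3 (17.3 to 26.4). Both core families were thus low outside cycling cells. H1 genes stood at 801 CPM in cycling and 233 CPM in non-cycling trace cells, and at 669 and 304 CPM in pulse, ratios of 3.44 (3.23 to 3.66) and 2.20 (2.07 to 2.34). H2B ratios were 4.58 (4.22 to 4.98) in trace and 2.59 (2.44 to 2.75) in pulse, and H4 ratios were 10.1 (9.16 to 11.1) and 4.76 (4.41 to 5.12). The H1 family made up 26.8% of histone UMIs in cycling trace cells and 57.9% in non-cycling ones, and 18.2% and 39.7% in pulse.

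**Figure D1:**
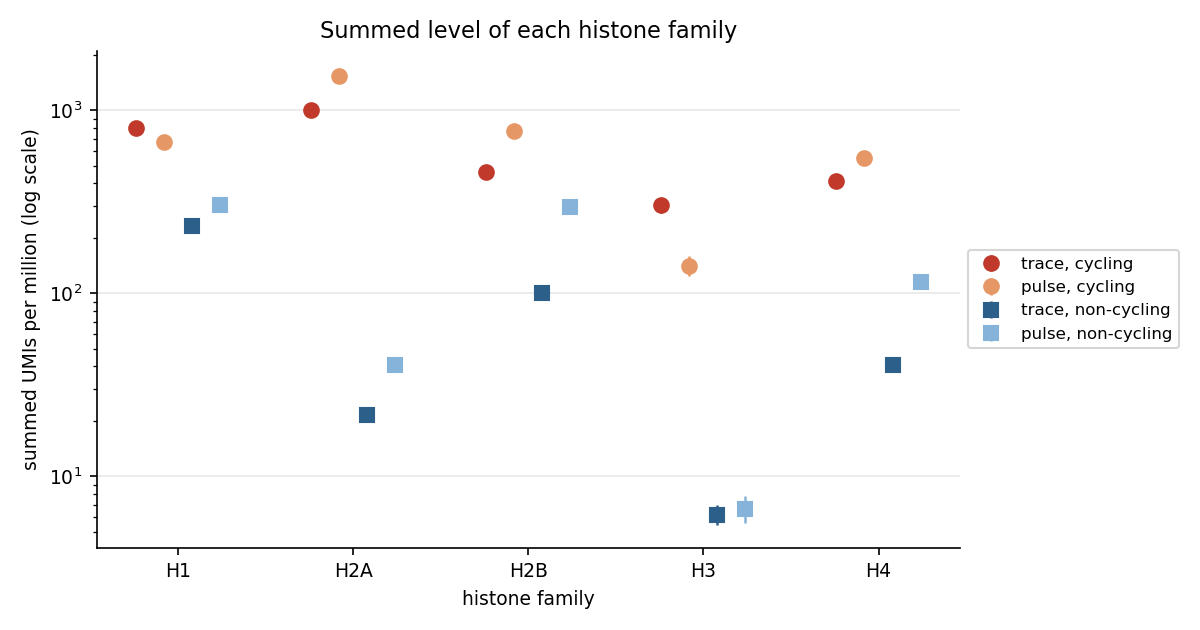
Summed level of each histone family in CPM (log axis) for cycling cells (circles) and non-cycling cells (squares) of each library, with exact Poisson 95% intervals that are often smaller than the symbols. H2A and H3 show the widest gap between cycling and non-cycling cells, and H1 the narrowest.

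Among the linker histones, which bind the DNA between nucleosomes, Hist1h1c was the least tied to cycling. It stood at 147 CPM in cycling and 143 CPM in non-cycling trace cells, a ratio of 1.03 (0.892 to 1.18), and at 417 and 254 CPM in pulse, a ratio of 1.64 (1.52 to 1.78). Hist1h1e stood at 306 and 82.1 CPM in trace and at 114 and 36.8 CPM in pulse, 3.73-fold and 3.11-fold higher in cycling cells. With cycling set by 2 or more UMIs of the S phase and G2/M lists, its ratios were 1.40 and 1.72, under the 2-fold limit. Hist1h1d was 14.7-fold higher in trace (62.7 and 4.25 CPM) and 6.31-fold higher in pulse (66.4 and 10.5 CPM). The ratios of the remaining linker genes were above the sums of the H2A and H3 families in trace. Hist1h1b stood at 231 CPM in cycling and 3.17 CPM in non-cycling trace cells, a ratio of 72.9 (59.0 to 90.6), and at 45.6 and 1.97 CPM in pulse, a ratio of 23.1 (15.7 to 34.4). Hist1h1a was 85.7-fold higher in trace (54.3 and 0.634 CPM) and 35.9-fold higher in pulse (25.3 and 0.704 CPM).

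Of the H2B genes, whose protein pairs with H2A in the nucleosome, Hist1h2bc was the second member with broad signal. It stood at 118 CPM in cycling and 88.7 CPM in non-cycling trace cells, a ratio of 1.33 (1.13 to 1.55), and at 583 and 277 CPM in pulse, a ratio of 2.10 (1.97 to 2.25). Hist1h1c and Hist1h2bc together held 52.5% of the 42359 histone UMIs in kept cells. Without them the sum over the other members was 15.9-fold higher in cycling cells of trace and 11.4-fold higher in those of pulse, a choice made after their share was seen. Hist1h2br was 23.7-fold higher in cycling cells of trace and 8.44-fold higher in those of pulse. Hist1h2be stood at 76.6 and 7.95 CPM in trace and at 33.7 and 12.3 CPM in pulse. Hist1h2bm and Hist1h2bn were among the members with the highest ratios, with 36.2 CPM of Hist1h2bn in cycling and 0.211 CPM in non-cycling trace cells, and 7.87 CPM and no UMI in pulse. For Hist1h2bm the values were 25.1 and 0.159 CPM in trace and 18.0 and 0.0939 CPM in pulse.

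The H2A genes Hist1h2ap and Hist1h2ae had nearly the same level in cycling trace cells, and Hist1h2ap was the most abundant member in cycling pulse cells. Hist1h2ap stood at 301 CPM in cycling and 2.46 CPM in non-cycling trace cells, a ratio of 122 (97.6 to 155), and at 738 and 15.7 CPM in pulse, a ratio of 47.1 (41.7 to 53.2). Hist1h2ae stood at 302 and 1.61 CPM in trace, a ratio of 188 (143 to 249), and at 520 and 5.21 CPM in pulse, a ratio of 99.8 (81.9 to 123). Both were thus far lower outside cycling cells in either library. In non-cycling pulse cells Hist1h2ap, at 15.7 CPM, still exceeded Hist3h2a at 9.39 CPM and Hist1h2be at 12.3 CPM. Hist1h2an stood at 94.7 and 0.555 CPM in trace and at 60.7 and 0.704 CPM in pulse. Hist1h2af had 25.8 CPM in cycling trace cells and no UMI in non-cycling ones, which allows up to 0.0793 CPM, and 18.6 and 0.0939 CPM in pulse. Hist3h2a went another way, with 48.0 and 9.19 CPM in trace and 41.6 and 9.39 CPM in pulse, ratios of 5.23 (3.98 to 6.78) and 4.43 (3.35 to 5.82). Hist1h2ac (29.9 and 2.22 CPM in trace, 39.4 and 4.55 CPM in pulse) and Hist2h2ac (62.7 and 2.85 CPM, 15.2 and 2.11 CPM) lay between.

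The H3 gene Hist1h3c was the most confined of the well-measured members. It stood at 66.8 CPM in cycling and 0.0793 CPM in non-cycling trace cells, and at 45.6 and 0.0939 CPM in pulse, where the non-cycling values rest on 3 and 2 UMIs. Its ratios were 843 (280 to 4161) in trace and 485 (130 to 4075) in pulse. Hist1h3e stood at 112 and 2.27 CPM in trace and at 16.9 and 0.892 CPM in pulse, so it too was low outside cycling cells. Hist2h3c2 was an H3 gene without such a gap, with 3.48 and 1.00 CPM in trace and 3.37 and 0.939 CPM in pulse. Its ratios of 3.47 (1.06 to 8.82) and 3.59 (1.18 to 9.28) were among the lowest of the members.

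The H4 genes encode the same core protein from many copies, yet spread over a wide range. Hist1h4i stood at 66.8 CPM in cycling and 8.77 CPM in non-cycling trace cells, a ratio of 7.62 (6.01 to 9.59), and at 380 and 77.0 CPM in pulse, a ratio of 4.94 (4.51 to 5.40). Hist1h4d stood at 139 and 18.7 CPM in trace, a ratio of 7.46 (6.34 to 8.73), and at 78.7 and 20.0 CPM in pulse, a ratio of 3.94 (3.23 to 4.78). Hist1h4i was thus the H4 gene with the most UMIs in pulse, and Hist1h4d the one in trace. Hist1h4n was 32.9-fold higher in cycling cells of trace and 6.68-fold higher in those of pulse, Hist1h4h 11.4-fold and 5.20-fold, Hist1h4c 4.85-fold and 4.61-fold, and Hist2h4 6.38-fold and 2.32-fold.

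**Figure D2:**
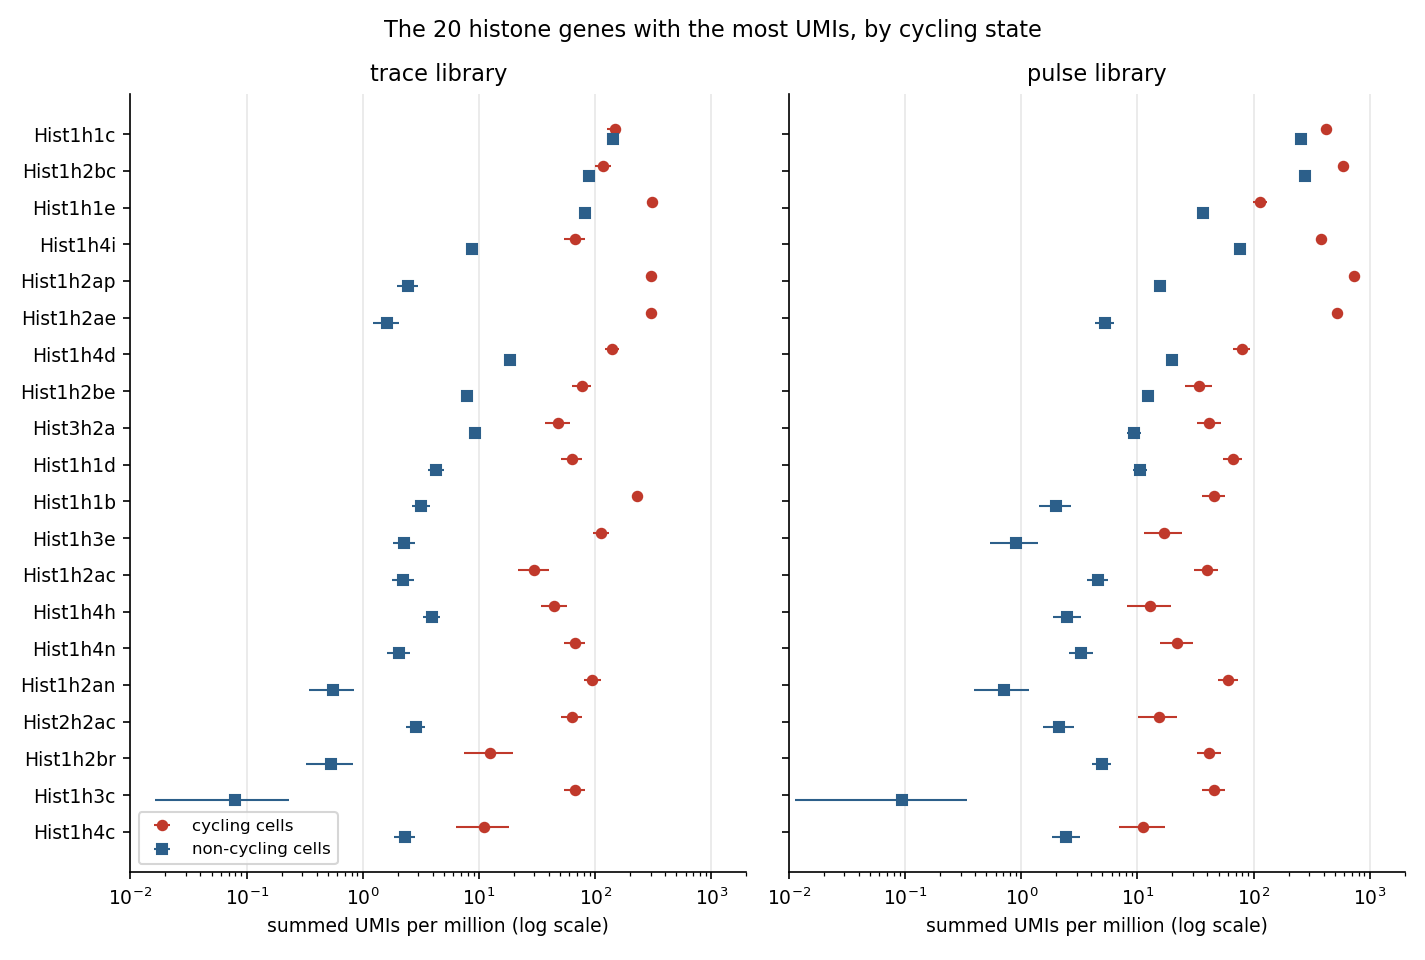
The 20 histone genes with the most UMIs, with their level in CPM (log axis) in cycling cells (circles) and non-cycling cells (squares) of the trace library (left) and the pulse library (right), and exact Poisson 95% intervals. In trace Hist1h1c has nearly the same level in both states (147 and 143 CPM), in pulse Hist1h2bc is 2.10-fold higher in cycling cells, and Hist1h3c lies below 0.1 CPM outside cycling cells in both libraries.

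Outside cycling cells, 7 of 61 members reached 5 CPM in both libraries, as did 9381 of all 32286 features. They were Hist1h1c, Hist1h2bc, Hist1h1e, Hist1h4i, Hist1h4d, Hist1h2be and Hist3h2a. In pulse alone Hist1h2ap, Hist1h1d and Hist1h2ae also reached 5 CPM, at 15.7, 10.5 and 5.21 CPM. In both libraries 14 members and 11579 features reached 2 CPM, and 4 members and 7475 features reached 10 CPM. Across both libraries 94.9% of all UMIs lay in non-cycling cells, and the median feature with at least 50 UMIs had 94.3% of its UMIs there. The median over the 45 members with as many UMIs was 52.1%. Under 50% of UMIs lay in non-cycling cells for 22 of these 45 members, against 1.39% of such features. Hist1h1c came closest to the median feature with 91.9%, followed by Hist1h2bc with 88.5% and Hist1h1e with 85.8%. At the other end Hist1h3b and Hist1h3g had no UMI in non-cycling cells of either library, which allows up to 0.0793 CPM in trace and 0.141 CPM in pulse. Both were seen with 26 and 30 UMIs in cycling cells, and they are named because they were the only members at 0 in both libraries.

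The 2 leading linker genes were not in a constant ratio over cell types. Of the UMIs of Hist1h1e and Hist1h1c together in non-cycling trace cells, Hist1h1e made up 66.7% (53.3% to 78.3%) in B lineage-like cells, 46.0% (44.7% to 47.4%) in superficial-zone-like cells and 7.24% (3.67% to 12.6%) in mural-like cells. The part of RNA from burst cells, which reaches every droplet, in the non-cycling values was not tested.

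The members seen outside cycling cells were mostly those whose annotated transcripts run on past the hairpin. All 61 members matched a GENCODE M21 gene by identifier. The transcript model contained the hairpin and at least 100 further bases in 22 members, the hairpin and fewer bases in 22, and no hairpin in 17. A model without the hairpin need not mean a gene without it. Some of these models are short, such as 393 bases for Hist1h2an and 381 for Hist1h2bn, and others long, such as 2197 for Hist1h2br. Whether the short ones stop before a hairpin was not tested, so this class is one of annotation. Among members with at least 50 UMIs, the 20 with an extended model had a median of 73.0% of their UMIs in non-cycling cells, with a range of 11.2% to 91.9%. The 11 with a short model had a median of 26.8% (range 2.75% to 69.8%), and the 14 without a hairpin in the model had 26.1% (range 2.78% to 88.5%). Of the 7 members at 5 CPM or more in non-cycling cells of both libraries, 6 had an extended model. The seventh, Hist1h2bc, has a spliced model of 2 exons without the hairpin.

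The same order held within each family in which both kinds had at least 2 measured members. Medians for extended and short models were 61.6% and 38.2% in H2A, 56.2% and 24.3% in H2B, 63.9% and 18.8% in H3, and 73.5% and 61.0% in H4. Over the 31 members with a hairpin in the model, Spearman's rho between bases after it and the non-cycling share was 0.67, given as a description because all points share the same 2 libraries and longer models can also collect more reads. Hist1h2ae was an exception, with 151 bases after the hairpin and 11.2% of UMIs in non-cycling cells. A poly(A) signal in the last 50 bases of a model was found in 15 members, 11 of them with extended models, and in 50.2% of all protein-coding transcripts.

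**Figure D3:**
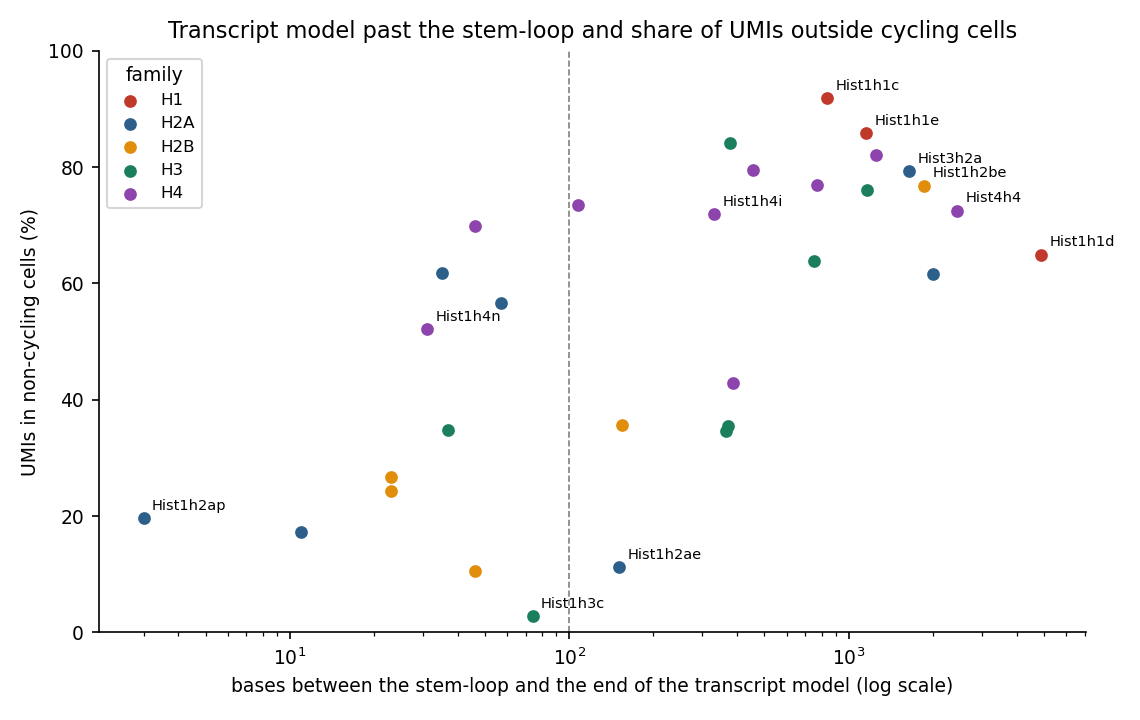
Each point is 1 of 31 histone genes with at least 50 UMIs and a hairpin in its transcript model, placed by the bases between hairpin and model end (log axis) and by the percentage of its UMIs in non-cycling cells. The dashed line marks 100 bases. Short models reach from 2.75% to 69.8%, and Hist1h1c with 840 bases lies at 91.9%.

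Reads of near-identical copies limit single-gene values. In 26 members more than 50% of the 90-base stretches in the last 300 bases also occur in another histone gene, among them Hist1h1e, Hist1h2ap, Hist1h3e, Hist1h4n and Hist1h2an, so their counts may be split or lost between copies. For Hist1h1e all of them do, and a model of Hist1h2be spans it on the same strand, so every value of Hist1h1e is uncertain in this way. Hist1h1c, Hist1h2bc, Hist1h4i, Hist1h4d and Hist1h1b share no such stretch.

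The promoters of 3 linker genes are printed because they share elements while their genes differ in non-cycling signal. Each sequence is 300 bases of RefSeq (GRCm38.p6) from 250 before to 50 after the start, with CCAAT boxes, the TATAAA element and the linker element AAACACA in capitals where they stand on the printed strand.
Hist1h1c: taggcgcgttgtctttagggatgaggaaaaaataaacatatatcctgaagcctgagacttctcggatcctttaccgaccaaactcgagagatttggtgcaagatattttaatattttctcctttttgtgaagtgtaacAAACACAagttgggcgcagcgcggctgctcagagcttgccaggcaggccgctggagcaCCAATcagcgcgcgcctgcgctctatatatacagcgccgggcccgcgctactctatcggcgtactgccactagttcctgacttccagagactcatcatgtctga
Hist1h1e: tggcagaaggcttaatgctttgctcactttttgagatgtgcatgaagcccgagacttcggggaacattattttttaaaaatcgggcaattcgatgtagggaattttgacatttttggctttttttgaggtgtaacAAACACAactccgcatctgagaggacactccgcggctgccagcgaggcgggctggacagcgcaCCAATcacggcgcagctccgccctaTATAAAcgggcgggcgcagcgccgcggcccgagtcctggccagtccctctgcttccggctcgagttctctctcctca
Hist1h1b: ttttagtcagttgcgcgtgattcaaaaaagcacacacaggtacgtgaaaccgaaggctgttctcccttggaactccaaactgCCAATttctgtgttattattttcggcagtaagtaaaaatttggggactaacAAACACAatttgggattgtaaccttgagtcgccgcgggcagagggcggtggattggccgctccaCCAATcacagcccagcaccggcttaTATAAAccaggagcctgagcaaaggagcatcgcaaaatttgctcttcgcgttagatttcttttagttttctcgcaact
They lie at chr13:23738557-23738856 (plus strand, Hist1h1c), chr13:23622509-23622808 (minus strand, Hist1h1e) and chr13:21780576-21780875 (minus strand, Hist1h1b). AAACACA, searched like the other motifs on both strands, was found in 4 of 5 linker promoters, against 7.18% of 32851 promoters in the table. CCAAT was found in 84.2% of 57 promoters of 56 matched members, against 37.4% of all, and TATAAA in 56.1%, against 13.6%. ATTTGCAT was found in 6 H2A and 6 H2B promoters and in no H1, H3 or H4 promoter, against 1.74% of all. It can share 2 letters with CCAAT, and both were then counted. Promoters of neighbouring genes on opposite strands can overlap, as those of Hist1h2ae and Hist1h2bg and of Hist1h2ah and Hist1h2bk do. The same site can then count for both promoters, so the counts of all these motifs are not of separate sites. By cycling signal, CCAAT was in 17 of 17 promoters of members with under 20% of UMIs in non-cycling cells and in 19 of 26 of those with 50% or more, and TATAAA in 10 of 17 and 15 of 26. All 9 promoters without CCAAT are of H4 genes. A match says only that the letters are present.

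Cells were gated by markers, and each gate was set apart by cycling state. Trace held 5613 superficial-zone-like and 254 deeper-zone-like chondrocytes, and pulse held 4587 and 902. Prg4, the lubricin gene, stood at 23860 CPM in trace and 8439 CPM in pulse superficial-zone-like cells, and was higher still in synovial lining-like cells, at 32980 and 31130 CPM. Acan, which encodes the cartilage proteoglycan aggrecan, stood at 3354 and 2936 CPM in superficial-zone-like cells and at 134 and 106 CPM in lining-like cells, while the deeper-zone marker Matn3 stood at 523 and 1475 CPM in deeper-zone-like cells. Cycling cells were of different kinds in each library. In trace 44.5% of them were marrow cells (neutrophil-, B lineage-, erythroid-, myeloid progenitor- or macrophage-like), 20.0% superficial-zone-like and 2.73% deeper-zone-like. In pulse 63.0% were deeper-zone-like, 31.3% superficial-zone-like and 0.893% marrow cells. Cycling trace and cycling pulse cells therefore compare different cell types. The mix also differed from that of non-cycling cells, of which 5569 of 9027 in trace and 4517 of 6309 in pulse were superficial-zone-like.

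Among gates with at least 20 cycling cells, the highest histone level was that of B lineage-like cells of trace, at 7337 CPM (6941 to 7750) in 30 cells. Cycling neutrophil-like cells of trace stood at 2770 CPM (42 cells), and cycling deeper-zone-like cells of pulse at 4369 CPM (141 cells). Cycling superficial-zone-like cells were far lower, at 1063 CPM (44 cells) in trace and 619 CPM (70 cells) in pulse. In the B lineage-like cells the leading members were Hist1h2ae at 784, Hist1h1e at 710, Hist1h1b at 698 and Hist1h2ap at 670 CPM. In cycling deeper-zone-like cells of pulse they were Hist1h2ap at 878, Hist1h2bc at 693, Hist1h2ae at 630 and Hist1h1c at 473 CPM, and Hist1h1b at only 52.2 CPM.

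Within gates, cycling cells kept the higher histone level, except in pulse superficial-zone-like cells. In deeper-zone-like cells of pulse the sum was 4369 CPM in cycling and 1439 CPM in non-cycling cells, a ratio of 3.04 (2.94 to 3.14), and 14 of 19 members were at least 2-fold higher, against 6.46% of features. In marrow cells of trace it was 4031 and 631 CPM, a ratio of 6.39 (5.78 to 7.07), with 13 of 17 members higher, against 18.5%. Hist1h3c passed the UMI floor there with 62 UMIs in cycling cells and none in the others. Members that pass mainly through cycling cells had to differ, so the counts within gates do not describe all members. In superficial-zone-like cells of trace the sum was 1063 and 348 CPM, a ratio of 3.06 (2.73 to 3.41), with 11 of 16 higher, against 15.7%. In pulse superficial-zone-like cells it was 619 and 559 CPM, a ratio of 1.11 (0.949 to 1.29), with 2 of 10 members higher, against 5.54%, and 1 lower, against 14.1%. The 2 were Hist1h2ap, at 112 and 11.9 CPM, and Hist1h2ae, at 35.0 and 2.89 CPM, and the lower one was Hist3h2a, with no UMI in cycling cells and 115 UMIs in the others, where the interval of the ratio reaches up to 1.62. Of those 70 cells 58 held a single UMI of Top2a and Mki67, and their histone level was 489 CPM (405 to 586), against 1285 CPM (981 to 1655) in the other 12. In deeper-zone-like cells of pulse the 46 cells with a single UMI stood at 2362 CPM and the 95 with more at 5005 CPM. Median UMIs of the S phase and G2/M lists were 4 in these 46 cells and 38 in these 95. In the superficial-zone-like cells of pulse the median was 1 in the 58 cells and 1 in the other 12. Even those 12 thus held few UMIs of other cycle genes. The part that free Top2a or Mki67 RNA plays in single-UMI cells was not tested.

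In non-cycling cells the gates differed in which members they held. Among trace gates with at least 50 such cells, Hist1h1c ran from 114 CPM in superficial-zone-like to 262 CPM in mural-like cells, with 236 CPM in synovial lining-like and 253 CPM in deeper-zone-like cells. Hist1h1e was highest in B lineage-like cells at 277 CPM, then superficial-zone-like cells at 96.8 CPM, and lowest in mural-like cells at 20.4 CPM. Superficial-zone-like cells of trace were thus low in Hist1h1c and high in Hist1h1e. Hist1h2bc stood at 246 CPM in deeper-zone-like cells, 196 CPM in endothelial-like cells and 62.1 CPM in superficial-zone-like cells. Hist3h2a reached 118 CPM in the 68 non-cycling B lineage-like cells, against 6.87 CPM in superficial-zone-like cells.

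**Figure D4:**
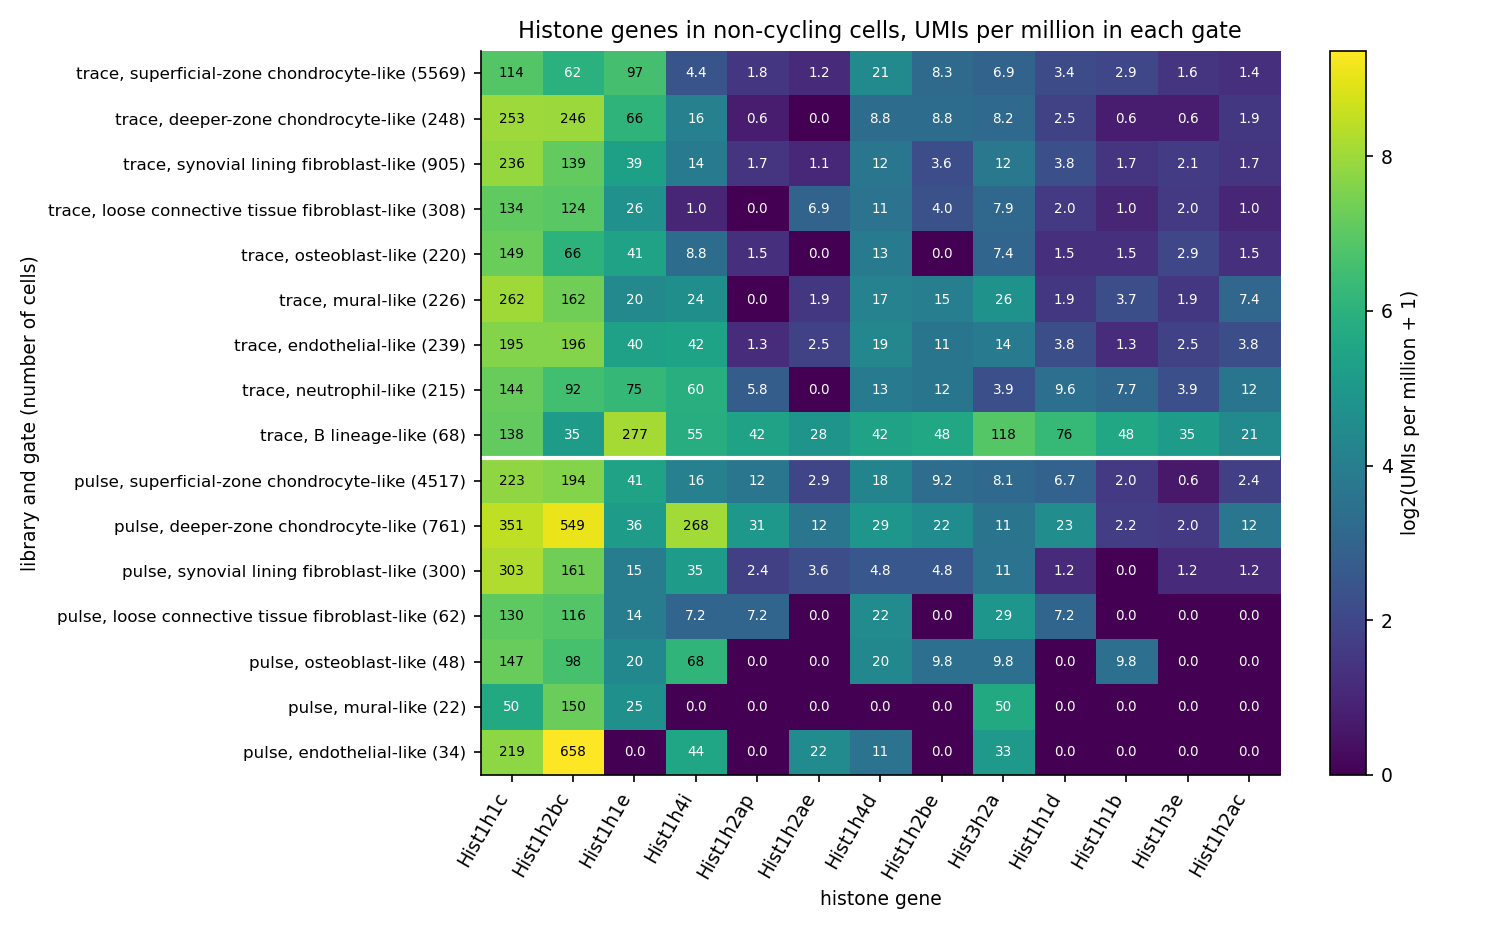
Level of the 13 histone genes with the most UMIs in non-cycling cells of each gate, trace above the white line and pulse below it, with the number of cells in brackets. Colour is log2 of CPM plus 1, and the printed numbers are CPM, such as 268 for Hist1h4i in deeper-zone-like cells of pulse; gates under 100 cells rest on few UMIs.

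Among non-cycling chondrocyte-like cells, deeper-zone-like cells of pulse had more histone RNA than superficial-zone-like cells, at 1439 and 559 CPM, a ratio of 2.57 (2.49 to 2.66). Of 14 members 9 were at least 2-fold higher, against 13.7% of features, and none was lower, against 14.4%. Hist1h4n, Hist1h2br, Hist1h2ac and Hist1h2ae had under 50 UMIs in superficial-zone-like cells. They passed the UMI floor with those of deeper-zone-like cells, so the count does not describe all members. Hist1h4i was the most uneven, at 268 CPM in deeper-zone-like and 16.1 CPM in superficial-zone-like cells, a ratio of 16.7 (14.5 to 19.3). Its 1641 UMIs in all non-cycling pulse cells lay in 413 of 6309 cells, with up to 60 in 1 cell. The 426 UMIs of Hist1h4d lay in 369 cells, with at most 4 in 1 cell. Hist1h4i thus had more UMIs in the cells that held it, and its interval does not cover that spread between cells. How its 1328 UMIs in deeper-zone-like cells spread over those 761 cells was not tested. Hist1h2br was 7.31-fold higher, Hist1h4n 6.13-fold and Hist1h2ac 4.96-fold. Deeper-zone-like cells were deeper in UMIs as well, with a median of 5995, against 2833. In trace the ratio of the sums was 1.83 (1.71 to 1.95), at 637 and 348 CPM, and Hist1h4i stood at 15.8 and 4.39 CPM. Of 13 members there 4 were higher, against 7.28%, and 4 lower, against 18.2%.

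The non-cycling level in the deeper zone was lower in cells with no UMI of any listed cycle gene. In pulse, deeper-zone-like cells without a UMI of Top2a, Mki67 or any of 36 S phase and G2/M genes stood at 951 CPM (895 to 1010, 261 cells), and Hist1h4i stood at 112 CPM (93.4 to 133) in them. In superficial-zone-like cells chosen the same way the sum was 507 CPM (491 to 524) and Hist1h4i 13.8 CPM (11.2 to 16.7). Hist1h4i thus stood higher in the deeper-zone-like cells of this subset too. A cell without a captured cycle UMI may still be cycling, which was not tested. Over all non-cycling pulse cells the sum was 562 CPM in cells with no cycle UMI, 772 CPM in those with 1 S phase UMI and 1172 CPM in those with 2 or more, where 7.35%, 11.8% and 31.1% were deeper-zone-like. Median UMIs per cell were 2436, 3084 and 4564, so the cells with no cycle UMI were also the shallowest. In trace the corresponding sums were 378, 412 and 433 CPM. Cycling trace cells with more G2/M than S phase UMIs stood at 3840 CPM, against 2585 CPM in those with more S phase UMIs, and 56.6% and 40.2% of them were marrow cells. In pulse these values were 4098 and 3906 CPM, and 86.4% and 60.8% of the cells were deeper-zone-like.

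The libraries were then set side by side within one state. Over all non-cycling cells the sum was 403 CPM in trace and 765 CPM in pulse, a ratio of 0.526 (0.515 to 0.538). Without Hist1h1c and Hist1h2bc it was 0.731. Of 24 members 8 were at least 2-fold lower in trace, against 15.4% of features, and 2 at least 2-fold higher, against 6.8%. In non-cycling superficial-zone-like cells it was 348 and 559 CPM, a ratio of 0.623 (0.604 to 0.642), and the families differed there. H2B stood at 73.4 and 207 CPM, a ratio of 0.354 (0.334 to 0.375), H2A at 0.579 (0.505 to 0.664), H1 at 0.796 (0.764 to 0.830), H4 at 0.812 (0.734 to 0.8999) and H3 at 0.872 (0.621 to 1.23) of the pulse level.

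In these cells 5 of 19 members were at least 2-fold lower in trace, against 14.2% of features, and 2 were at least 2-fold higher, against 3.41%. The lower ones were Hist1h2bc (62.1 CPM in trace, 194 in pulse), Hist1h4i (4.39 and 16.1 CPM), Hist1h2ap (1.77 and 11.9 CPM), Hist1h2ae (1.18 and 2.89 CPM) and Hist2h4 (1.30 and 3.25 CPM). Hist1h2ap was the lowest, at 0.148 (0.104 to 0.207) of the pulse level. The higher ones were Hist1h1e, at 96.8 CPM in trace and 40.9 CPM in pulse, a ratio of 2.37 (2.16 to 2.60), and Hist1h3e, at 1.65 and 0.565 CPM, a ratio of 2.92 (1.35 to 7.20) on 42 and 8 UMIs, which is exactly the 50 UMIs the rule asks for. The linker genes thus parted, since Hist1h1c stood at 114 CPM in trace and 223 CPM in pulse, a ratio of 0.509 (0.484 to 0.536). Hist1h1d stood at 0.509 (0.376 to 0.688) of the pulse level and Hist1h1b at 1.49 (0.953 to 2.39). The median log2 ratio was -0.15 for the 19 members, which lay on both sides of 0, and -0.22 for all features. Scaling by the median ratio, which removes that shift, gave 5 lower and 4 higher.

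Hist1h1e was compared in other gates as well. It stood at 38.7 CPM in trace and 14.5 CPM in pulse synovial lining-like cells, a ratio of 2.66 (1.49 to 5.25), and at 66.4 and 35.5 CPM in deeper-zone-like cells, a ratio of 1.87 (1.45 to 2.39). The ratio was 6.69 (3.65 to 13.6) in unassigned cells. The other gates held at most 2 pulse UMIs of it: the ratio was 2.11 (0.531 to 18.2) in osteoblast-like cells, 1.77 (0.444 to 15.4) in loose connective tissue-like cells and 0.817 (0.119 to 35.2) in mural-like cells, and endothelial-like cells had 32 trace UMIs and none in pulse. Hist1h2be, the gene whose model spans it, had a ratio of 0.8995 (0.720 to 1.13) in superficial-zone-like cells. All these gates share the same 2 libraries, so they are not independent.

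In non-cycling deeper-zone-like cells, 248 in trace and 761 in pulse, most measured members were lower in trace. The sum was 637 CPM in trace and 1439 CPM in pulse, a ratio of 0.442 (0.414 to 0.473), and 9 of 12 members were at least 2-fold lower, against 19.3% of features. None was higher, against 2.49%. This gate held 1582036 trace and 4955438 pulse UMIs, and all members but Hist1h1c, Hist1h2bc and Hist1h1e had under 50 trace UMIs, so they passed the UMI floor through pulse, and the count does not describe all members. Hist1h4i stood at 15.8 and 268 CPM, a ratio of 0.0590 (0.0380 to 0.0874). Hist1h2ap was down to 1 UMI, with 0.632 CPM in trace and 31.1 CPM in pulse, and Hist1h2ae had no UMI in trace, which allows up to 1.90 CPM, against 11.9 CPM in pulse. Hist1h1d stood at 0.109 (0.0292 to 0.287), Hist1h2br at 0.0908 (0.0108 to 0.341), Hist1h2ac at 0.159 (0.0319 to 0.489), Hist1h4d at 0.300 (0.1602 to 0.520), Hist1h2be at 0.395 (0.209 to 0.691) and Hist1h2bc at 0.448 (0.402 to 0.498) of the pulse level. Hist1h1c, at 253 and 351 CPM, and Hist3h2a, at 8.22 and 11.1 CPM, stayed within 2-fold. The gate also differed in its markers: Matn3 stood at 523 CPM in trace and 1475 CPM in pulse, Col2a1, the cartilage collagen gene, at 13690 and 27330 CPM, Prg4 at 1034 and 322 CPM, and the osteoblast gene Bglap at 186 and 43.3 CPM, over cycling and non-cycling cells together. Their part in the histone values was not tested. The share of cycling cells in this gate was 2.36% (0.872% to 5.07%) in trace and 15.6% (13.3% to 18.2%) in pulse.

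**Figure D5:**
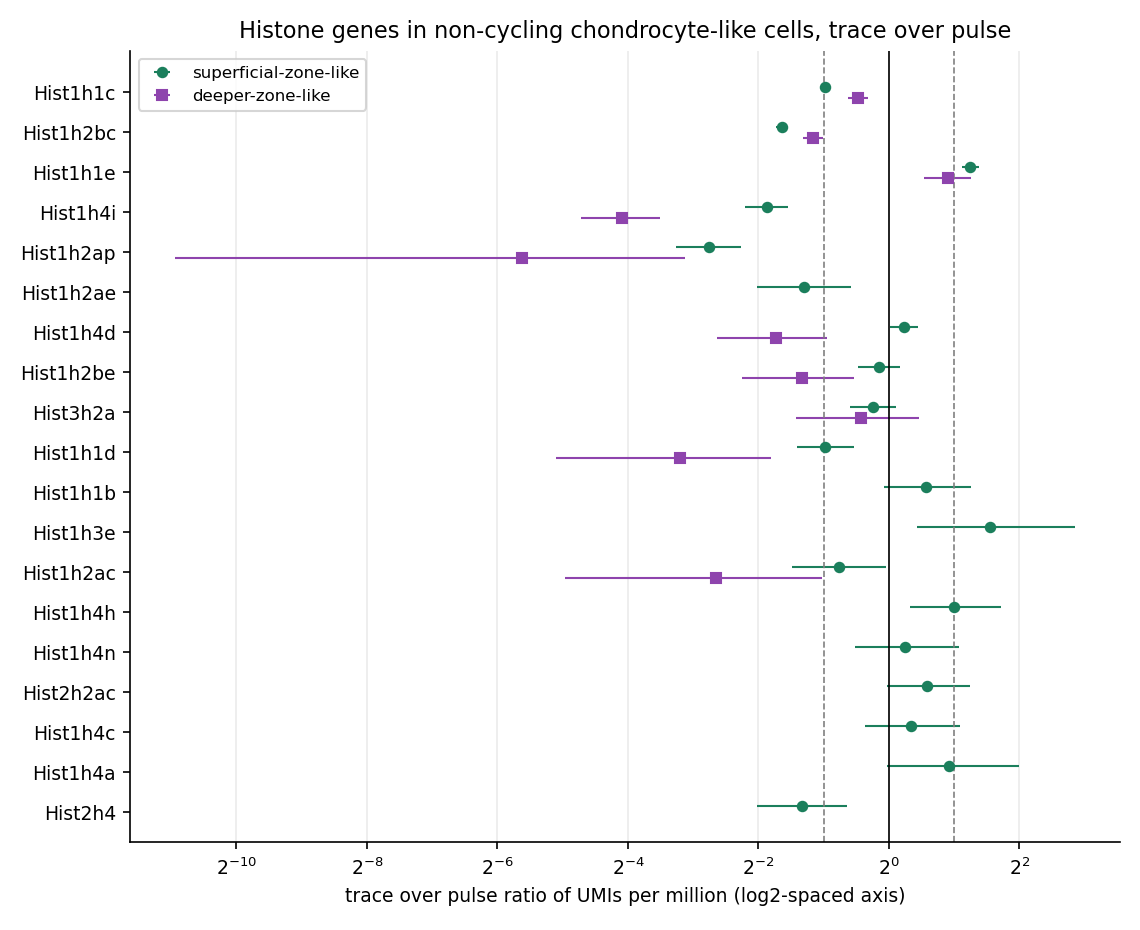
Ratio of trace over pulse in non-cycling superficial-zone-like cells (circles) and deeper-zone-like cells (squares), with exact 95% intervals for counting error, for histone genes with at least 50 UMIs over both libraries in superficial-zone-like cells. The solid line marks a ratio of 1 and the dashed lines 2-fold; Hist1h1e lies above 1 in both, and Hist1h4i at 0.273 and 0.0590.

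In cycling superficial-zone-like cells, 44 in trace and 70 in pulse, the sum was 1063 CPM in trace and 619 CPM in pulse, a ratio of 1.72 (1.43 to 2.07). Of single members, Hist1h1e stood at 147 and 59.5 CPM, and Hist1h2ap at 50.2 and 112 CPM. Of these cells 17 in trace and 12 in pulse held more than a single UMI of Top2a and Mki67. They stood at 1779 CPM (1573 to 2006) in trace and 1285 CPM (981 to 1655) in pulse. The 27 trace and 58 pulse cells with a single UMI stood at 422 CPM (330 to 532) and 489 CPM (405 to 586), with overlapping intervals. The ratio of the sums thus also depends on the share of single-UMI cells, which differed between libraries.

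Genes that work with the replication-dependent histones were set beside them, from lists chosen for their function. Most replication-independent histones are made outside S phase too, from polyadenylated mRNAs. Of 11 measured in trace 8 were at least 2-fold higher in cycling cells, against 20.6% of all features. In pulse 7 of 10 were, against 11.7%. The largest ratios were those of Cenpa, the centromeric H3 variant (23.1 in trace, 33.9 in pulse), H2afx, the variant phosphorylated at DNA breaks (13.9 and 10.96), and H1fx, a linker variant (9.99 and 12.7). Their medians on the log2 scale were 1.82 and 1.30, below the members' 4.46 and 2.58. The members' medians cover only the 31 in trace and 28 in pulse that passed the UMI floor. Some of them passed mainly through cycling cells, so the order of these and the later lists is only a description. Of 17 genes for histone transcription, 3′ end processing and chaperones 11 were higher in trace, against 20.6% of features, and 6 in pulse, against 11.7%. They were led by the chaperone genes Asf1b (65.9 and 35.9-fold) and Chaf1a (30.0 and 15.4-fold) and by E2f1, a cell cycle transcription factor (5.04 and 3.55-fold).

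All 19 measured S phase genes were higher in cycling cells of trace, against 20.6% of features, and 18 of 19 in pulse, against 11.7%. The highest ratios in trace were those of Mcm5 (74.9), Rrm2 (74.3), Uhrf1 (70.5) and Cdc45 (33.3), genes of the replicative helicase, nucleotide supply, methylation upkeep and origin firing. All 16 G2/M genes were higher in both libraries, against the same shares of features. In trace they were led by Aurkb (490), Cenpf (482), Ube2c (450) and Hmmr (320). In trace the members' median of 4.46 lay between those of the S phase list, 3.76, and the G2/M list, 7.24, and in pulse 2.58 lay below both, 3.31 and 6.48. Slbp, which encodes the stem-loop binding protein and was picked after its values were seen, stood at 123 CPM in cycling and 46.0 CPM in non-cycling trace cells and at 217 and 88.4 CPM in pulse. In non-cycling superficial-zone-like cells it stood at 42.0 CPM in trace and 92.2 CPM in pulse, a ratio of 0.456 (0.420 to 0.495). H1f0, a linker variant known from non-dividing cells and also picked afterwards, stood at 103 and 326 CPM there, a ratio of 0.316 (0.301 to 0.331).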

How the data were processed

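The authors deposited raw UMI counts, 1 matrix for each library. Cell Ranger 7.1.0 is named per the file headers, but 3.0.1, with mm10, per the submitters' processing notes. Whether introns were counted, and with which annotation release, is not given in the sources used here, and barcodes do not tell the pooled mice apart. Counts were summed over cells and divided by the total UMIs of those cells (CPM). The members, lists and thresholds were chosen with earlier results of these data known.

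A gate was the class with the highest share of its markers at 2 or more UMIs, with at least 2 such markers and no tie, and 1058 trace and 568 pulse cells stayed unassigned. Of kept cells, 3814 of 9247 in trace and 2898 of 6533 in pulse met more than 1 gate, so the gates are not pure cell types. The gate rule was settled after other versions had been looked at with histone values in view. So were the hairpin consensus, the limit of 100 bases after it, the motifs and promoters shown, the comparison of zones, the strata by cycle lists, the split of cycling cells by a single UMI and the linker shares by gate. Members were counted over all barcodes, and in kept cells Hist1h2ao has 9 UMIs. Named genes were the 20 members with the most UMIs, the 5 highest and 5 lowest ratios of cycling over non-cycling cells among members with at least 50 UMIs, all H1 members and the leading genes of each list; any other is marked as picked afterwards or completes a small count.

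Scrublet, run through scanpy 1.11.5, marked 188 trace and 0 pulse cells and so did not work in pulse; doublets were kept, and removing the 5% with the highest scores is an alternative. Sequences came from GENCODE M21 and RefSeq tables of the same build. Ratios and 2-fold calls were tested on simulated counts. The scripts ran on Python 3.11.15 with scipy 1.17.1 for intervals, pandas 2.3.3 and numpy 2.4.6 for sums, and matplotlib 3.10.9 for plots. No count model was fitted, because each group has 1 library.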

Additional observations from a re-analysis of the deposited data

Results flagged for a closer look

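Barcodes left out by the cell filter, which no comparison uses, also held histone UMIs. The 1176 trace barcodes stood at 441 CPM (401 to 485), above the 3.01 CPM that a count of 0 allows, and the 330 pulse barcodes stood at 899 CPM (779 to 1032), above 13.4 CPM. Kept cells stood at 497 CPM in trace and 989 CPM in pulse. The left-out barcodes were thus lower in trace, while in pulse the level of kept cells lay within their interval.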

How the results depend on the processing

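No paired analysis was possible because each group has 1 library. No direction of a sum was reversed by any alternative. The sum in cycling over non-cycling cells, 7.42 in trace and 4.797 in pulse, was 2.02 and 2.94 with cycling set by 2 or more UMIs of the cycle lists, 9.07 and 6.24 with 2 or more of Top2a and Mki67, 10.9 and 4.03 when cells were thinned to 2000 UMIs, 7.89 and 6.53 against cells with no cycle UMI, and 15.9 and 11.4 without Hist1h1c and Hist1h2bc; with at least 1000 genes per cell pulse gave 4.63. The trace over pulse sum of 0.526 in non-cycling cells was 0.507, 0.640, 0.583, 0.673 and 0.731 under at least 1000 genes, the cycle lists, thinning, no cycle UMI and without both genes, and 0.574 when scaled without ribosomal RNA-associated and mitochondrial transcripts.

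Members higher in cycling cells, 29 in trace and 27 in pulse, numbered 14 and 9 after thinning, where fewer could be measured (16 and 11), and 55 and 48 with a floor of 10 UMIs (57 and 51 measured). With the cycle lists 24 of 31 and 24 of 28 were higher. Members lower in trace in superficial-zone-like cells, 5 of 19, numbered 10 of 34 with that floor and 3 of 9 in cells with no cycle UMI. The 2 of 19 higher in trace numbered 6 with that floor, 4 when scaled without ribosomal RNA-associated and mitochondrial transcripts or by the median ratio, and 1 without the highest Scrublet scores, with the cycle lists, after thinning and in cells with no cycle UMI, where Hist1h3e had too few UMIs to be measured. Members seen in non-cycling cells of both libraries, 7, numbered 14 at 2 CPM and 4 at 10 CPM. The choices with no cycle UMI and without both genes were added after seeing the data, and the cause of each shift was not tested. Of single named members, 22 of 130 ratios in trace and 23 of 121 in pulse moved by over 1.5 times, mostly with the cycle lists, where Hist1h1e lost its 2-fold call in both libraries (1.40 in trace, 1.72 in pulse). Hist1h1c was 0.992 with at least 1000 genes and 0.869 without the highest Scrublet scores in trace, and Hist3h2a was 1.02 between libraries in cells with no cycle UMI.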
